A study of Mus musculus with 5 samples.

Results

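Expression of 40 genes of BMP and TGF-beta signalling was followed in cultures of mouse embryonic stem cells that were differentiated on gelatin towards pancreas. The genes were chosen by name as ligands, receptors, Smads, antagonists, nuclear corepressors and responders of the pathway, and all 40 had a probe set with a single gene symbol, out of 18193 genes on the array. Where a gene had several probe sets, the one brightest on average across the 5 arrays stood for it. The cultures were untreated at day 5, day 6 and day 8 (the controls), or were given 2 µM MPA from day 5 and collected at day 6, after 1 day, or at day 8, after 3 days. The labels do not write MPA out, name no strain or cell line, and give no other agent. Each of the 5 groups had 1 array. A difference of 2 arrays therefore has a size but no replicate error, and whether it exceeds the spread between cultures is unknown.

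BMPs and TGF-betas are secreted ligands that bring together type I and type II serine/threonine kinase receptors. BMP receptors phosphorylate Smad1 and Smad5, TGF-beta and activin receptors phosphorylate Smad2 and Smad3, and both kinds of Smad enter the nucleus with Smad4. Id genes are direct targets of the BMP branch, and Smad6, Smad7, Skil and Bambi restrain the signal as feedback. In the early embryo activin and Nodal signals support endoderm, while BMP signals favour mesoderm, epidermis and dorsal neural fates and are held back where neural tissue forms.

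Values are array signals, scaled by the authors to the same trimmed mean on every array. Dim signals were set to a floor of 86.8, the median over all probe sets that are not controls, before folds were taken. A comparison used a gene only if 1 or both of its 2 arrays exceeded this floor. If just 1 did, the fold is a lower bound, written "at least". Of the 40 genes, 30 lay above the floor on all 5 arrays and the other 10 on 1 to 4 of them. No gene's level is set against another's, because probe sets differ in brightness.

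Markers of several cell types were above the floor. Pdx1, the defining transcription factor gene of the pancreas, lay under the floor of 86.8 on 4 arrays and reached 90.4 with MPA at day 8. Of the 5 pancreatic progenitor markers on the array, 2 to 4 were above the floor on each array, Sox9 on all 5. Neurog3, of the endocrine progenitor factor, lay under the floor up to day 6. Its day 8 signals were 193 (control) and 1295 (MPA), and Sox9 was 2.43-fold higher with MPA at day 8. Of these 5 markers 4 were higher with MPA at day 8, 2 of them 2-fold or more. The lower one was Ptf1a, at 130 in the day 8 control and under the floor with MPA, at 2.73. Summed signals of 6 pluripotency markers went from 30167 at day 5 to 422 in the day 8 control. In bulk RNA, fewer cells of a type and less RNA per cell cannot be told apart. RNA integrity, read as the ratio of 3' to 5' Gapdh signal, gave 1.08 to 1.57 with both day 8 arrays above the rest. The same ratio of Actb was lowest at day 5, at 2.08, highest on the day 6 arrays, at 3.04 and 3.06, and 2.81 and 2.71 at day 8. The part of RNA integrity in the differences with time was not tested.

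Most of the large differences in this pathway lay along the time course, not between MPA and control. Between day 5 and day 6 in the controls, 10 of 37 measured genes were 2-fold or more apart (27.0%), against 9.86% of all measured genes on the array. Of these 10, 4 were higher and 6 lower at day 6, where 5.46% and 4.4% of all genes were. Between day 6 and day 8 it was 12 of 36 (33.3% against 13.5%), 8 higher and 4 lower at day 8 (7.07% and 6.43% of all genes). Between day 5 and day 8 it was 11 of 39 (28.2% against 16.9%), 7 higher and 4 lower (9.61% and 7.27% of all genes).

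With MPA at day 6, 2 of 33 measured genes were 2-fold or more apart, 2 higher and 0 lower (6.06% against 7.17% of all genes, of which 4.02% were higher and 3.15% lower). That share is near the background. At day 8, 5 of 37 were 2-fold or more apart (13.5% against 6.91%), 3 higher and 2 lower (3.72% and 3.18% of all genes). In all, 6 genes reached 2-fold at either day and 1 of them, Bmp2, did so at both days and in the same direction. That is 1 of the 2 genes of day 6 and 1 of the 5 of day 8. The same overlap over all genes is not given here, so this count has no background to be read against.

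**Figure D1:**
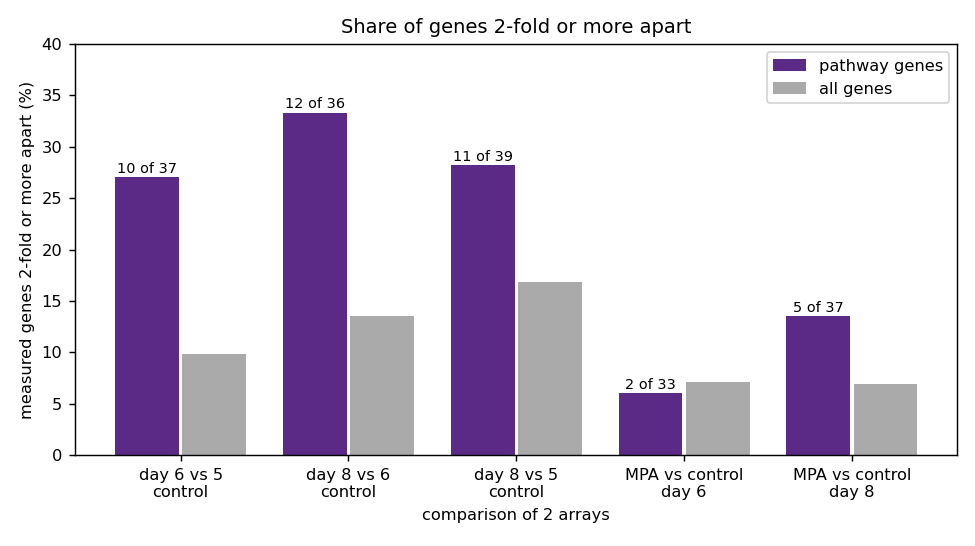
Share of measured genes 2-fold or more apart, in percent (vertical axis), in 5 comparisons of 2 arrays each; purple bars are the pathway genes, with their counts above, and grey bars all measured genes. The purple bar stands above the grey one in the 3 comparisons of control days (27.0%, 33.3% and 28.2%) and for MPA at day 8 (13.5%), and below it for MPA at day 6 (6.06%).

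The median log2 difference of the pathway genes was -0.10 for day 6 against day 5, 0.40 for day 8 against day 6 and 0.34 for day 8 against day 5, where the medians of all measured genes were 0.02, 0.02 and 0.04. It was 0.16 for MPA at day 6 and 0.13 at day 8, where all genes had 0.02 and -0.02. The comparisons of consecutive control days share the day 6 array, and each MPA comparison shares its control array with a comparison of days, so they are not independent. The first of these medians had no settled sign, at 0.08 when probe sets of the kinds _s_at, _x_at and _a_at were left out.

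The BMP ligand genes held both genes that reached 2-fold with MPA at day 6, Bmp2 and Bmp4. Bmp2 encodes a BMP made in early mesoderm and endoderm. Its signals were 723 at day 5, then 1406 (day 6) and 292 (day 8) untreated, and 3533 (day 6) and 604 (day 8) in treated cells. It was highest with MPA at day 6 and lowest in the day 8 control. Bmp2 was higher with MPA, 2.51-fold (day 6) and 2.07-fold (day 8), while in the controls it was 4.82-fold lower at day 8 than at day 6. With log2(signal + floor) the day 8 difference was 0.87 on the log2 scale, under 2-fold.

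Bmp4 encodes the BMP best known for inducing mesoderm and for holding back neural fate. Its signals were 849.9, 381 and 937 at days 5, 6 and 8 in untreated cells, and 1207 and 674 at days 6 and 8 under MPA. The day 6 control was the low array and MPA at day 6 the high one, 3.17-fold apart. At day 8 the order was the opposite, with MPA 1.39-fold lower, which is under 2-fold. Endoderm markers moved with both genes at day 6. Of 6 definitive endoderm markers 5 were higher with MPA, Sox17 by 2.23-fold, and Gsc was lower by at least 2.39-fold, and their summed signals were 11273 without and 18394 with it. Of 4 measured extraembryonic endoderm markers 3 were higher, Ttr by 7.06-fold, with sums of 861 and 2915 and Afp under the floor on both arrays. At day 8 with MPA, 3 of 5 measured definitive endoderm markers were higher, Foxa1 by 2.21-fold. The 2 lower ones were Sox17, by 3.20-fold, and Cxcr4, by at least 5.27-fold. Of 4 measured extraembryonic endoderm markers 1 was higher and 3 lower at day 8. The part of endoderm cells in the Bmp2 and Bmp4 differences was not tested.

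Bmp7, Bmp5 and Bmp6 showed smaller differences. Bmp7, of a BMP that can pair with Bmp2 and Bmp4 proteins, had signals of 311, 270.4, 320.4, 435 and 744 in the same order of arrays, and was 1.71-fold higher with MPA at day 8. Its other probe sets disagree: both went the opposite way at day 8. Bmp5, a BMP of mesenchyme, was near the floor, at 111, 91.2, 11.0, 196 and 105, and was 2.15-fold higher at day 8 than at day 6 in the controls. That difference kept 2-fold in 4 of 8 settings, with a log2 range of 0.15 to 1.10. Bmp6 lay above the floor only with MPA at day 8, at 138.

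**Figure D2:**
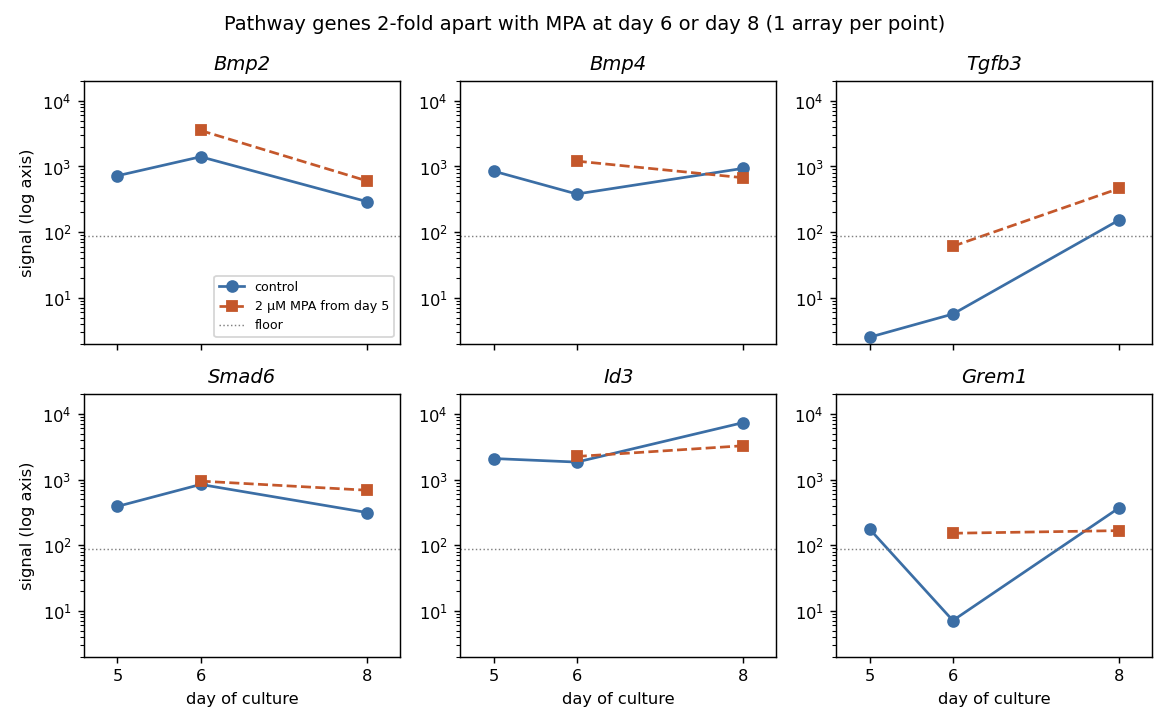
Signals (vertical, log axis) by day of culture for the 6 genes that were 2-fold or more apart with MPA at day 6 or day 8; circles are controls, squares MPA, each 1 array, and the dotted line is the floor of 86.8. MPA lies above the control at both days for Bmp2 and crosses it between day 6 and day 8 for Bmp4, Id3 and Grem1.

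Among the TGF-beta ligands, Tgfb2 was the gene with the largest increase over time. Tgfb2 encodes an isoform made in heart cushions, neural crest derivatives and mesenchyme. Its signals were 89.4 at day 5, then 204 (day 6) and 1474 (day 8) untreated, and 384 (day 6) and 1951 (day 8) in treated cells. Both day 8 arrays were above all 3 earlier ones. The day 8 control was 16.5-fold above day 5 and 7.21-fold above the day 6 control, and all 3 further probe sets went the same way in both comparisons. Over the 8 settings the log2 difference ranged from 2.65 to 4.04 against day 5 and from 2.06 to 2.85 against day 6. Neither MPA difference reached 2-fold, as the treated arrays were 1.88-fold (day 6) and 1.32-fold (day 8) higher.

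Tgfb3, of the isoform known from palate and lung, lay at or under the floor until day 8. Its signals were 2.52, 5.67 and 61.0 on the day 5 and day 6 arrays, and 153 (control) and 463 (MPA) on the day 8 arrays. Only the day 8 arrays were above the floor, and they were 3.02-fold apart. Tgfb1, the isoform of immune cells and platelets, stayed between 54.6 and 115 on all arrays on the probe set used. Its other probe set differed, at 105 at day 5, 112 with MPA at day 6 and under the floor on the rest.

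Ltbp1, whose protein binds latent TGF-beta into the matrix, followed Tgfb2 in time. Its signals were 227, 349 and 934 at days 5, 6 and 8 in untreated cells, and 204 and 1303 at days 6 and 8 under MPA. The day 8 control was 4.11-fold above day 5, although the mean over its probe sets put that log2 difference at 0.70, under 2-fold. MPA was 1.71-fold lower at day 6 and 1.39-fold higher at day 8.

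The activin subunit genes were dim. Inhba, whose product forms activin A, had signals of 196 at day 5, then 14.6 (day 6) and 239 (day 8) untreated, and 47.0 (day 6) and 337 (day 8) in treated cells. Both day 6 arrays were under the floor, so the day 6 control was lower than day 5 by at least 2.26-fold, and the day 8 control higher than day 6 by at least 2.76-fold. Each difference kept 2-fold in 6 of 8 settings, and was lost with the mean over probe sets (-0.59 and 0.73 on the log2 scale) and a floor at the 65th percentile (-0.15 and 0.44). Inhbb, the subunit of activin B, lay above the floor at day 5 alone, at 111.

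Tgfb2 and Ltbp1 were high at day 8 together with markers of mesenchyme and with some cardiac markers. All 7 mesenchyme markers were measured for day 6 against day 5 and all 7 were higher. For day 8 against day 5, 6 of 6 measured were 2-fold or more higher, with Lum under the floor on both arrays. Their summed signals were 1483 at day 5, 3188 and 3343 on the day 6 arrays, and 11978 and 11555 at day 8, in each pair without and with MPA. Those of 6 cardiac markers were 475, 517 and 356 up to day 6 and 2633 and 7108 at day 8. Between the controls of day 6 and day 8, 3 cardiac markers were higher (Actc1, Myh7 and Myl7), Nkx2-5 and Myh6 went under the floor, and Tnnt2 was under it on all arrays. The part of these cell types in the Tgfb2 and Ltbp1 signals was not tested.

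The 9 receptor genes differed little on the probe sets used. None was 2-fold apart between day 5 and day 6, between day 6 and day 8, or with MPA at either day. Between day 5 and day 8 in the controls, 2 were 2-fold or more higher. The type I TGF-beta receptor gene Tgfbr1 had signals of 1693, 2297 and 4464 at days 5, 6 and 8 in the controls and 2603 and 4900.2 with MPA at days 6 and 8. It was higher on both day 8 arrays than on any earlier one, 2.64-fold for the controls of day 8 against day 5, but under 2-fold as the mean over probe sets (0.78 on the log2 scale). The type II activin receptor gene Acvr2a had signals of 824, 1188 and 1976 in the controls and 928 and 1979 with MPA, so its day 8 arrays were 1.002-fold apart and its day 8 control 2.40-fold above day 5.

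Bmpr1a, the type I receptor of BMP2 and BMP4, was the steadiest receptor on the probe set used, between 3508 and 3919.6 on the 5 arrays. Its 4 further probe sets above the floor were higher in the day 8 control than at day 5, by 0.12 to 0.95 on the log2 scale. Bmpr2, the type II receptor of BMPs, had signals of 1849.7, 2508 and 2599 in the controls and 3332 and 3929.5 with MPA. It was 1.33-fold and 1.51-fold higher with MPA at days 6 and 8, but at each day a further probe set over the floor had the opposite direction. Tgfbr3, of the coreceptor betaglycan, was 1859.7 at day 5 and 937 in the day 6 control, 1.98-fold lower, and was 1.57-fold higher with MPA at day 8. Acvr1, Acvr2b and Tgfbr2 were within 1.65-fold with MPA on the probe sets used, and Bmpr1b reached the floor only at day 8, at 136 without and 135 with MPA. A further probe set of Acvr2b was 1287 at day 5 and 451 in the day 6 control. A further probe set of Acvr1 was 177 in the day 8 control and 67.3, under the floor, with MPA at day 8.

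The Smads that carry the signal were steady on the probe sets used. Smad5, of the BMP branch, ranged from 1392 to 1557 over the 5 arrays and Smad1, of the same branch, from 3087 to 4187. Further probe sets of Smad5 were higher in the day 8 control than at day 5, by 0.74 and 1.26 on the log2 scale. Smad2 and Smad3, of the TGF-beta branch, were 1.48-fold and 1.58-fold higher in the day 8 control than at day 5. The shared partner Smad4 was lowest with MPA at day 6, at 4763, against 6715 in its control, which is 1.41-fold lower. Its further probe sets were lowest on other arrays. For 1 it was the day 6 control, at 2365 against 2547 with MPA. The other was lowest at day 5, at 3604, and had 6295 in the day 6 control and 5126 with MPA.

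Smad6, whose protein inhibits the BMP branch, differed more. Its signals were 390.0, 842 and 314 at days 5, 6 and 8 in untreated cells, and 946 and 687 at days 6 and 8 under MPA. The day 6 arrays were high whether or not MPA was given, and at day 8 the control was low. Smad6 was 2.16-fold higher at day 6 than at day 5, 2.68-fold lower at day 8 than at day 6, and 2.19-fold higher with MPA at day 8. With log2(signal + floor) the first of these was 0.96 and the last 0.95 on the log2 scale, both under 2-fold. Smad7, which inhibits both branches, was highest with MPA at day 6 (727) and lowest in the day 8 control (491), and its fold with MPA at day 8 was 1.26. Its other probe set disagreed, with its highest signal in the day 8 control (286) and its lowest in the day 6 control (114). That probe set was higher with MPA at day 6 (251) and lower with MPA at day 8 (184).

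**Figure D3:**
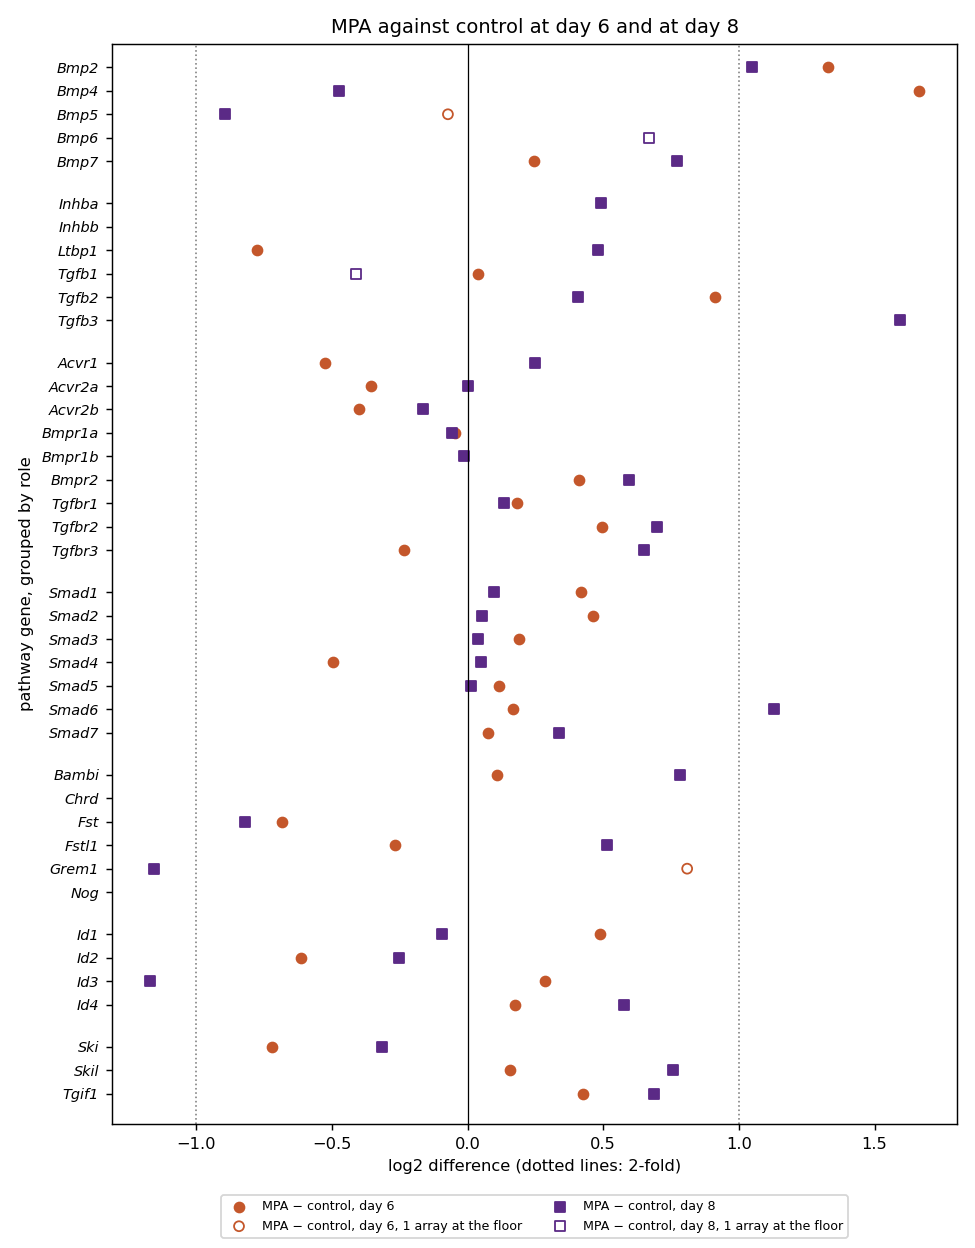
Log2 difference of MPA against control (horizontal) for each of the 40 genes, grouped by role, at day 6 (circles) and day 8 (squares), from 1 array each; open symbols have 1 array at the floor, genes with no symbol had both there, and dotted lines mark 2-fold. The receptors and the Smads other than Smad6 lie between the 2-fold lines at both days.

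Among the secreted and membrane antagonists, Fst stood out. Fst encodes follistatin, which binds and blocks activins. Its signals were 8307 at day 5, then 476 (day 6) and 290.4 (day 8) untreated, and 296 (day 6) and 165 (day 8) in treated cells. Day 5 was far above every later array, 17.5-fold above the day 6 control and 28.6-fold above the day 8 control, and the other probe set went the same way. It was lower with MPA, 1.61-fold (day 6) and 1.76-fold (day 8), both under 2-fold. Pluripotency markers moved alongside at this step: 5 of 6 were lower at day 6, 3 of them 2-fold or more. Their summed signal went from 30167 to 1844, with Utf1 and Tdgf1 under the floor after day 5. Tdgf1 alone had 16576 of the day 5 sum, and it is also a pathway gene, of a Nodal coreceptor. The part of pluripotent cells in the Fst difference was not tested.

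Grem1 encodes gremlin, which binds and blocks BMP2, BMP4 and BMP7. Its signals were 176, 7.13 and 371 at days 5, 6 and 8 in untreated cells, and 152 and 167 at days 6 and 8 under MPA. The day 6 control was the 1 array under the floor and the day 8 control the highest. At day 6 MPA was the higher array by at least 1.75-fold, and at day 8 the lower one by 2.23-fold. With log2(signal + floor) the day 8 difference was -0.85.

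Bambi, of a pseudoreceptor that dampens TGF-beta and BMP signals, was between 517 and 666 on 4 arrays and 1145 with MPA at day 8, 1.72-fold above its control. Fstl1, of a follistatin-like glycoprotein, was highest on the same array, at 9495 against 6644. Nog and Chrd encode noggin and chordin, the classical BMP antagonists of the embryonic organizer. Their signals were above the floor at day 5 alone, at 95.7 and 92.7, and both were under it on all 4 later arrays.

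All 4 Id genes, which encode helix-loop-helix proteins that block differentiation factors, were higher at day 8 than at day 6 and at day 5 in the controls. They stayed higher under each of the 7 alternative settings for scaling, floor and probe sets, except that Id1 was not measured without probe sets ending in _a_at. Id3 had signals of 2088 at day 5, then 1842 (day 6) and 7346 (day 8) untreated, and 2243 (day 6) and 3266 (day 8) in treated cells. The day 8 control was above every other array, 3.99-fold above the day 6 control. With MPA at day 8 Id3 was 2.25-fold lower, and it kept at least 2-fold in all 7 alternatives, while at day 6 it was 1.22-fold higher.

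Id2 had signals of 1806, 3743 and 6237 in the controls of days 5, 6 and 8, and 2444 and 5238 with MPA. MPA was the lower array at both days, 1.53-fold at day 6 and 1.19-fold at day 8. The day 8 control was 3.45-fold above day 5. Id1 had signals of 1868, 1718 and 2836 in the controls and 2410.2 and 2659 with MPA, and no comparison reached 2-fold.

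Id4 had signals of 267, 122 and 396 in the controls and 137 and 590.1 with MPA, so it was 3.25-fold higher at day 8 than at day 6, though just under 2-fold as the mean over probe sets (0.99 on the log2 scale). Of its other probe sets, 1 was higher at day 8 by 1.33 on the log2 scale. The other was slightly lower, at 133 in the day 6 control and 128 in the day 8 control. At day 6 Id4 was 2.20-fold lower than at day 5, but both other probe sets went the other way and the mean over all 3 gave a log2 difference of 0.01. With MPA at day 8 Id4 was 1.49-fold higher, opposite in direction to Id3.

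Neural markers moved with Id3 at day 8. Of 7 neural markers on the array, 5 were 2-fold or more higher at day 8 than at day 6 in the controls, and all 7 were lower with MPA at day 8, 4 of them 2-fold or more. Their summed signals were 4969.7, 4392 and 13135 at days 5, 6 and 8 in the controls, and 2179.7 (day 6) and 4627 (day 8) in treated cells. At day 6 with MPA, 4 of 5 measured neural markers were 2-fold or more lower and 1 was higher, while Id3 was 1.22-fold higher. Neural crest markers moved with Id3 at day 8 with MPA but not with time. Their summed signals were 2174 and 2141 in the controls of day 6 and day 8, with 2 of 4 measured markers higher and 2 lower at day 8, and 485 with MPA at day 8. In that MPA comparison 2 of 3 measured markers were 2-fold or more lower and Sox10 was at least 1.38-fold higher, with Foxd3 and Ngfr under the floor on both arrays. Their part in the Id3 difference was not tested.

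The 250 bases before the start of Id2, Id3, Id4 and Smad6 are shown because the Id genes, targets of the BMP branch, were all higher at day 8 than at day 5 and day 6, and Smad6 was 2-fold or more apart between day 6 and day 8. For Id2 the difference between day 6 and day 8 was under 2-fold. They are given 5′ to 3′ on the gene's strand from RefSeq, build GRCm38.p6, which held 28 of the 40 genes. Capitals mark GGCGCC or GGAGCC on either strand, GC-rich elements described for BMP Smads. The positions are chr12:25096093-25096342 (minus strand) for Id2, chr4:136143572-136143821 (plus) for Id3, chr13:48260866-48261115 (plus) for Id4 and chr9:64022060-64022309 (minus) for Smad6. The last 26 bases of the Smad6 window lie inside the gene's outermost annotated transcript.
Id2: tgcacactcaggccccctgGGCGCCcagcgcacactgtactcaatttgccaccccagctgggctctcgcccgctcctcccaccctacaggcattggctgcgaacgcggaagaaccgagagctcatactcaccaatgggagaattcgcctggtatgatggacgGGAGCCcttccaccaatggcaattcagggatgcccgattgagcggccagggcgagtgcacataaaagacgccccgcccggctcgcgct
Id3: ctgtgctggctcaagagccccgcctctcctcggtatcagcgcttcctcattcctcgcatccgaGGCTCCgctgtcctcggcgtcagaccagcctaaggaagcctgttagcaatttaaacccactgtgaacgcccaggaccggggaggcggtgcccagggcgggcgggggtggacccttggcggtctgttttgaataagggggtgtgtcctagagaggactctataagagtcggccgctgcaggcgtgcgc
Id4: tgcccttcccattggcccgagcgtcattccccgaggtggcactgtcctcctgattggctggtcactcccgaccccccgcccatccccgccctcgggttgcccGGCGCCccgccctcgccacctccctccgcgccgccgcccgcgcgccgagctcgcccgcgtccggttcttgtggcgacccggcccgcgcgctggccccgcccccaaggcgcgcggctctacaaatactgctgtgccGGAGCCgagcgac
Smad6: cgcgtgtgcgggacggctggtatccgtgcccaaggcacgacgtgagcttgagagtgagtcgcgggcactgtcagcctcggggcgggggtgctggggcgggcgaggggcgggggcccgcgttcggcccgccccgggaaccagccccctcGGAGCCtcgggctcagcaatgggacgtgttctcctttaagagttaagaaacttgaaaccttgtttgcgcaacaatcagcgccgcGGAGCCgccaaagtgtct

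Id2 and Id4 hold each element 1 time, Id3 holds GGAGCC 1 time as its reverse complement GGCTCC, and Smad6 holds GGAGCC 2 times. GGCGCC was in 9.59% of the 32851 RefSeq windows of this length and in 9 of the 38 windows of the pathway genes. GGAGCC was in 26.0% of all windows and in 19 of those 38, some of which belong to the same gene. The pathway windows were richer in G and C, with a median of 63.8% against 52.4%. These matches describe the letters only.

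The nuclear corepressor genes were lower at day 8 than at day 6. Ski, Skil and Tgif1 encode proteins that hold Smad complexes silent, and all 3 were lower at day 8 than at day 6 in the controls, under each alternative in which they were measured. Ski had signals of 741, 3845 and 918 in the controls of days 5, 6 and 8 and 2333 and 738 with MPA at days 6 and 8. Both day 6 arrays were above the other 3, and the day 6 control was 5.19-fold above day 5 and 4.19-fold above day 8. Against day 5, Ski was 1.24-fold higher in the day 8 control, and its other probe set was higher by 1.81 on the log2 scale. MPA was the lower array at both days, 1.65-fold and 1.24-fold.

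Skil, which encodes SnoN and is itself induced by TGF-beta, had signals of 7613, 10228 and 3118 in the controls and 11406 and 5274 with MPA. The day 8 control was the lowest array, 3.28-fold under day 6 (a log2 difference of -1.71, and -0.86 as the mean over probe sets), and MPA was 1.69-fold higher at day 8. Tgif1 had signals of 2193, 960.3 and 638 in the controls and 1289.9 and 1026 with MPA. Day 5 was the highest array, 3.44-fold above the day 8 control, and MPA was the higher array at both days, 1.34-fold and 1.61-fold.

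**Figure D4:**
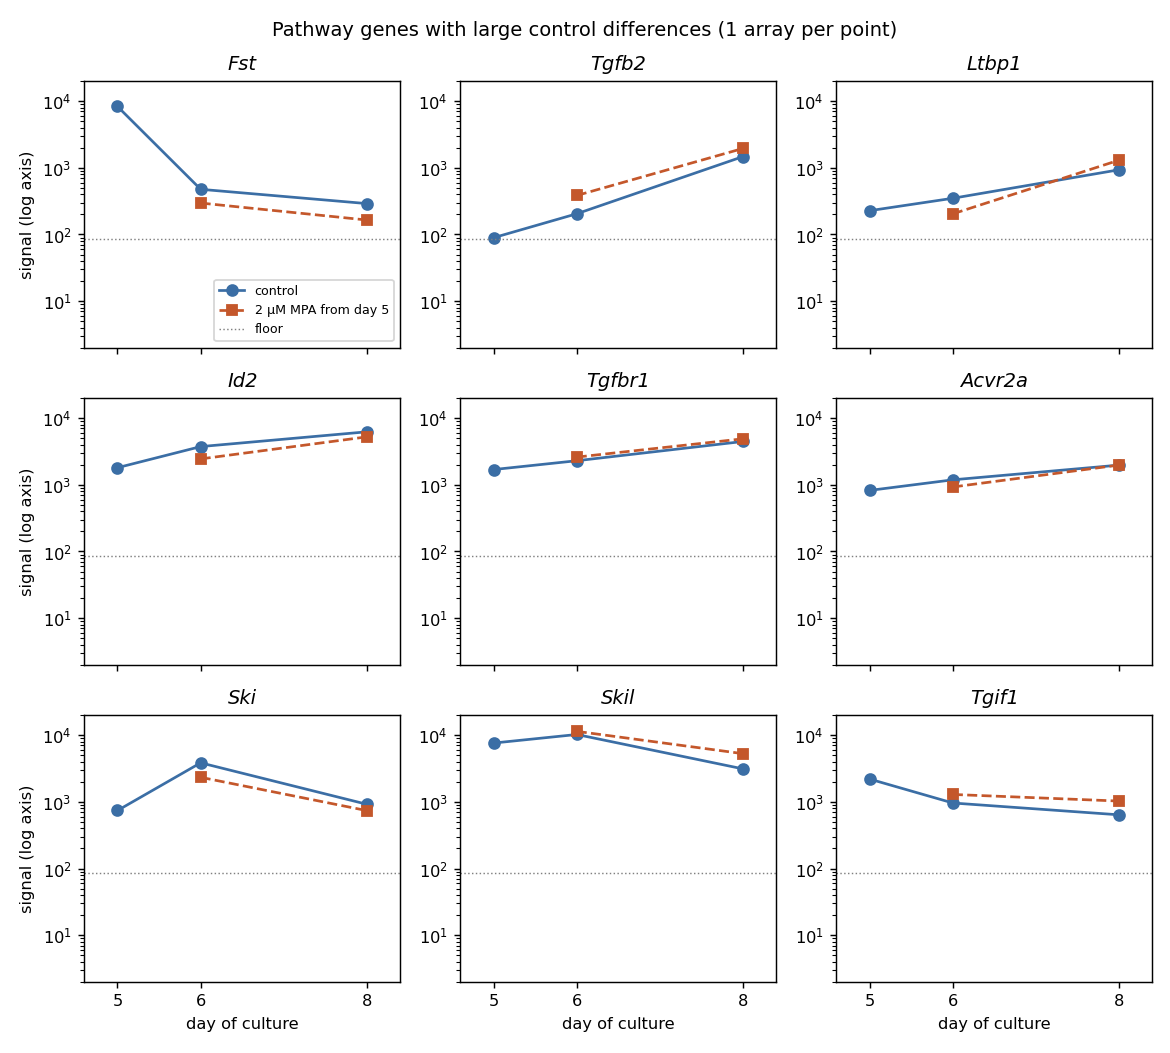
Signals (vertical, log axis) by day of culture for 9 genes with large differences between control days; circles are controls, squares MPA, each 1 array, and the dotted line is the floor of 86.8. Fst drops from 8307 at day 5 to 476 at day 6, Tgfb2 climbs to 1474 at day 8, and Ski is highest at day 6.

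Between day 6 and day 8 in the controls, 29 of the 36 measured genes were higher at day 8, and 7 lower. Of all 12824 genes measured in this comparison, 6583 were higher and 6241 lower. BMP ligands (3 of 4), Smads (5 of 7) and antagonists (3 of 4) were mostly higher. All 4 Id genes and all 5 measured TGF-beta and activin ligand and latency genes were higher at day 8, with medians of 1.22 and 1.42 on the log2 scale, and all 3 corepressors were lower, with a median of -1.71. The 9 receptor genes were higher with a median of 0.42, but median centring put 2 of them lower, and quantile normalization and the mean over probe sets 1 each. At the step from day 5 to day 6 each of these groups went both ways.

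**Figure D5:**
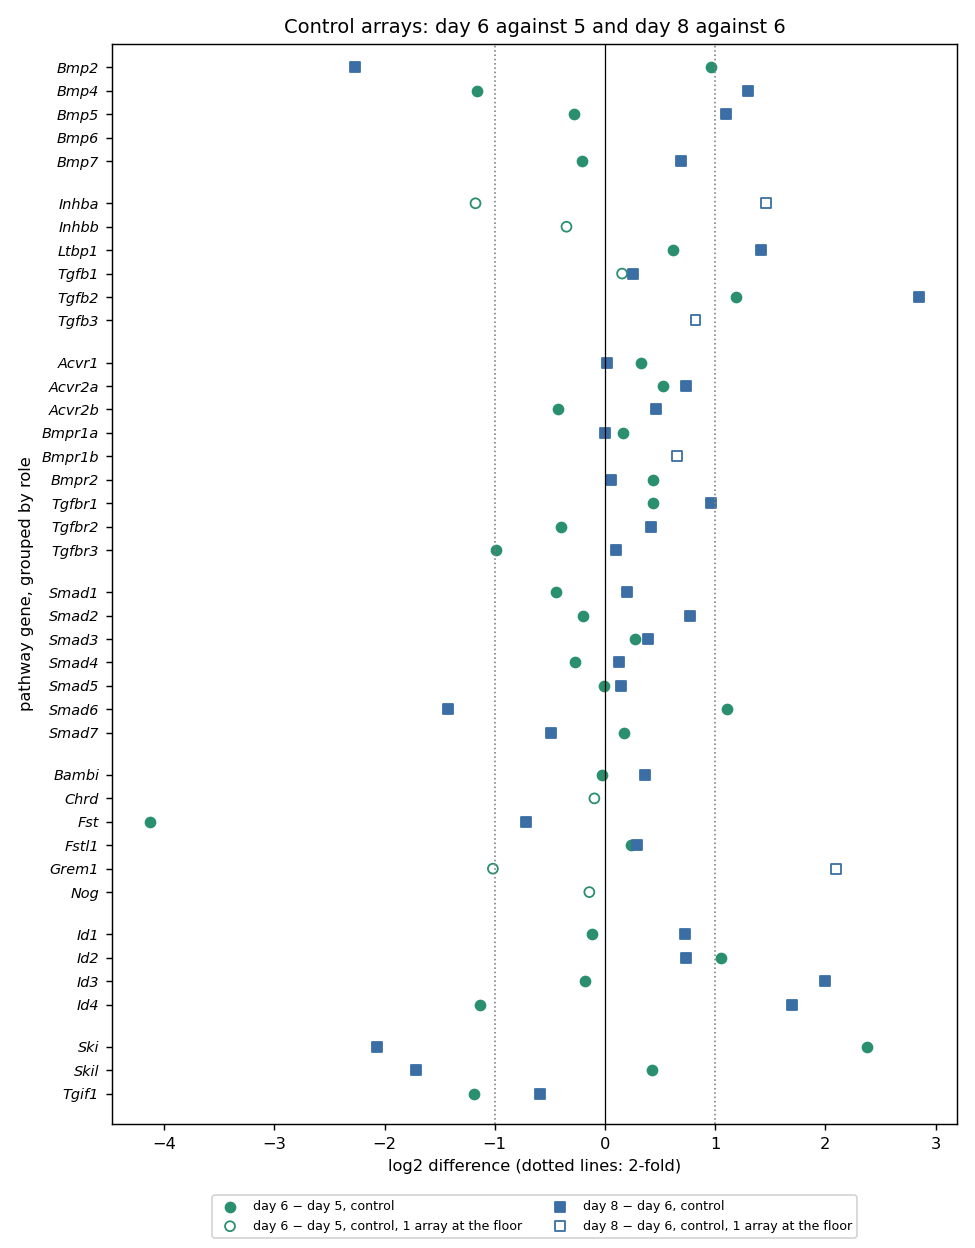
Log2 difference (horizontal) of day 6 against day 5 (circles) and of day 8 against day 6 (squares) in the controls for the 40 genes, grouped by role; each point compares 2 arrays, open symbols have 1 array at the floor, and dotted lines mark 2-fold. The squares of the TGF-beta and activin group and of the Id genes lie right of 0 and those of the corepressors left of it; both sets of points share the day 6 control array.

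A further 67 symbols of the pathway were read as well, of which 57 had a probe set with a single symbol. With MPA at day 6, 7 of 39 measured were 2-fold or more apart, 4 higher and 3 lower (17.9% against 7.17% of all genes). At day 8 it was 6 of 42, 4 higher and 2 lower (14.3% against 6.91%). Msx2 and Msx1, homeobox genes that BMPs induce in dorsal and limb tissue, were 4.56-fold and 2.79-fold higher with MPA. Msx1 had signals of 49.1, 129.7 and 1004 at days 5, 6 and 8 in untreated cells, and 362 and 108 at days 6 and 8 under MPA. It was thus higher with MPA at day 6 and 9.33-fold lower at day 8, while Msx2 was 1.08-fold lower at day 8.

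Other target genes with MPA differed by gene. The cell cycle inhibitor gene Cdkn2b, a TGF-beta target, was 3.63-fold (day 6) and 1.69-fold (day 8) higher, and the matrix gene Tgfbi was 3.45-fold and 1.11-fold lower. Dcn, of the TGF-beta-binding proteoglycan decorin, was 2.07-fold and 2.74-fold higher. Tagln, a smooth muscle and TGF-beta target gene, was 2.57-fold higher at day 8, and Inha, of the inhibin alpha subunit, 2.23-fold. Junb was lower at day 8 by at least 2.20-fold. Lefty1, a Nodal antagonist, was 2.60-fold lower at day 6.

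In the controls 17 of 48 measured symbols were 2-fold or more apart between day 5 and day 8, 10 lower and 7 higher at day 8 (35.4% against 16.9%). Those lower included Nodal, Lefty1, Lefty2, Tdgf1 and Gdf3, which are ligands, antagonists and a coreceptor of the Nodal branch, with Gdf3 at least 15.0-fold lower. Tgfbi was 12.0-fold higher, Msx1 at least 11.6-fold, Ltbp3, of another latent TGF-beta binding protein, 4.40-fold and Col1a1 3.998-fold. Pmepa1, a TGF-beta-induced feedback inhibitor, was 4.86-fold lower at day 8 than at day 5 and 1.85-fold and 1.92-fold higher with MPA at days 6 and 8.

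A model of the day 6 and day 8 arrays, 4 in all, that holds terms for day and for MPA asked which genes differed alike at both days. It has 1 residual degree of freedom, which comes from the disagreement between the days. The fit then draws each gene's error towards that of genes of similar signal, so the error is not that disagreement alone. Of 11599 genes tested in limma, 1 passed at an adjusted p under 0.05 (0.00862%), and 0 of the 36 pathway genes tested did. At an unadjusted p under 0.05 there were 3 of the 36 (8.33%), against 6.37% of all genes tested: Bmp2, Bmpr2 and Skil, all higher with MPA. For Bmp2 the log2 difference over both days was 1.19 (SE 0.27), with a limma adjusted p of 0.492, higher at both days. The other 4 genes, Bmp6, Nog, Chrd and Inhbb, were above the floor on too few of these arrays to be tested.

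Further probe sets gave a partial check of direction. For the 28 genes with several, those above the floor went the same way as the one used in 20 of 29 cases for day 6 against day 5, in 28 of 34 for day 8 against day 5 and in 26 of 34 for day 8 against day 6. With MPA it was 20 of 31 at day 6 and 20 of 35 at day 8. Bmp2, Bmp4, Tgfb3, Smad6, Id3 and Grem1 each had 1 probe set, so the 6 genes that reached 2-fold with MPA have no such check.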

How the data were processed

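RNA from 5 cultures was hybridised to 1 Affymetrix mouse array each. For each probe set the authors deposited a linear intensity. The tool was MAS5, per the submitters' processing notes, whose version is not given in the sources. Each array's 2% trimmed mean is 500.0. Of 45101 probe sets, 64 were controls, 34945 had 1 gene symbol in the platform annotation, 932 had several and 9160 were unnamed here. The last 2 kinds were left out, and all 40 pathway genes matched the RefSeq gene table by identifier.

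Signals were floored at 86.8 and taken to log2. Genes 2-fold or more apart were counted, without a test. The limma fit (limma 3.58.1, R 4.3.3) used lmFit and eBayes with trend and robust, genes that exceeded the floor on 2 or more of these 4 arrays, and Benjamini-Hochberg adjustment over all genes. It was tested on simulated data. Other steps used Python 3.11.15, numpy 2.4.6, pandas 2.3.3 and matplotlib 3.10.9. The number of arrays limits the precision.

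The pathway genes, further symbols, marker lists and rules were chosen with earlier results of these data known. Signals on every array are given for genes 2-fold apart with MPA and for the 10 with the largest difference of day 8 against day 5, and for at least 1 gene of each role. Of the further symbols and the markers, up to 4 each way and up to 2 a list with the largest differences could be named, and Pmepa1, Lefty2, Nedd4l and the markers beyond that rule were named after their values were seen. The alternatives were quantile normalization, median centring, log2(signal + floor), a floor at the 25th or the 65th percentile, the mean over probe sets, and probe sets without the endings _s_at, _x_at and _a_at. The limma fit was also run unfiltered, without its day term, and with plain eBayes.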

Additional observations from a re-analysis of the deposited data

Results flagged for a closer look

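In 4 genes MPA differences of at least 1.5-fold went in opposite directions at day 6 and day 8. Grem1 is among the 40 pathway genes, and Msx1, Zfyve9 and Nedd4l are among the 57 further symbols. How many genes of the whole array did so is not given here. The difference between the days was not tested, since each day had 1 array a group. For Grem1 the log2 differences were 0.81 at day 6, a lower bound, and -1.16 at day 8. For Msx1 they were 1.48 and -3.22. For Zfyve9, which encodes a Smad anchor protein, they were -1.07 and 1.07, the latter a lower bound. For Nedd4l, of a ubiquitin ligase that acts on Smads, they were -0.64 and 0.92.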

How the results depend on the processing

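Of 40 differences of 2-fold or more in the pathway genes, counted over the 5 comparisons, the 7 alternatives for scaling, floor and probe sets gave 273 values, of which 245 were still 2-fold and 28 were not. The mean over probe sets accounts for 12 of the 28 and turned 1 direction, Id4 for day 6 against day 5 (a log2 difference of 0.0101). With a floor at the 25th percentile, 7 genes were higher and 3 lower with MPA at day 6 (2 and 0 before), and 5 higher and 4 lower at day 8 (3 and 2 before). With log2(signal + floor), MPA at day 8 gave 1 higher and 1 lower and day 6 against day 5 gave 2 higher (4 before). Without probe sets ending in _s_at, _x_at or _a_at, MPA at day 8 gave 1 lower. With the mean over probe sets, day 6 against day 5 gave 2 higher and day 8 against day 6 gave 4 higher (8 before). A floor at the 65th percentile left 3 genes lower for day 6 against day 5 (6 before). The causes were not tested, other than that a lower floor measures more genes. In the limma fit 0 genes of the array passed with quantile normalization, with the mean over probe sets, without the day term and without trend and robust, and 7 passed with no filter; 0 pathway genes passed under any of these. Over all genes, other scalings moved the split of calls: for MPA at day 6, 56.1% of 2-fold genes were higher, against 45.2% with median centring. The labels give no replicate numbers, and the day term already sets each MPA array against the control of its own day. Leaving out a replicate was not possible, since each group has 1 array.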
